A study of Mus musculus with 9 samples.

Results

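The genes described here carry the signal of thyroid-stimulating hormone (TSH) from the surface of the thyrocyte to its nucleus. They are the TSH receptor Tshr, the G protein subunit Gnas, the adenylyl cyclases Adcy3, Adcy6 and Adcy9, the phosphodiesterases Pde4b, Pde4d and Pde8b, the kinase subunit Prkar1a and the transcription factor Crem. These 10 genes were taken by name from the 52636 genes of the count table. Each was matched to its Ensembl identifier, and its counts were summed per sample and cell label.

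TSH binds Tshr, a receptor of the follicle cell that couples mainly to Gs, the stimulatory G protein whose alpha subunit is encoded by Gnas. Gs activates adenylyl cyclases, which make cyclic AMP, and phosphodiesterases break it down. Cyclic AMP releases the catalytic subunits of protein kinase A from regulatory subunits such as Prkar1a, and the kinase acts on CREB family factors at promoters. In thyrocytes this chain is known to drive iodide uptake, hormone synthesis and growth.

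The cells came from thyroids of male C57BL/6 mice killed 7 days after 1 intraperitoneal injection of antibody. The protocol gives their age as 10 to 14 weeks, and the design text gives 10 to 12 weeks. The control group RW received 40 mg/kg of an isotype antibody against ragweed, group aJ1aJ2 received 20 mg/kg each of antibodies against the Notch ligands Jag1 and Jag2, and group aN1aN2 received 5 mg/kg of antibody against Notch1 and 10 mg/kg against Notch2. Each group had 3 samples, and each sample was a pool of thyroids from 6 mice, digested together. No allele or transgene is named for any group, and direct and indirect effects of the antibodies on thyrocytes cannot be told apart.

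The 9 samples held 10186 cells and 63121420 UMIs (unique molecular identifiers, each 1 captured transcript) under 16 cell labels from the authors' annotation. The label Th1, 1169 cells, was taken as thyrocytes, since the summed level of 6 thyrocyte markers, with Tg among them, was 84948 to 115186 CPM (UMI counts scaled to a fixed total of each sum) in every sample. Samples differed in depth. Median UMIs per Th1 cell were 12535 to 22558 in RW, 9968 to 15314 in aJ1aJ2 and 5737 to 7558 in aN1aN2, and the Th1 sums held 872716 to 5233988 UMIs. By the sample numbers in the titles the libraries form 3 series. RW 3 and aJ1aJ2 1, whose titles give no replicate number, make up series A. The other RW and aJ1aJ2 libraries belong to series B. Every aN1aN2 library is in series C, so receptor blockade and series C cannot be told apart. Of 10171 distinct cell barcodes, 15 occurred in more than 1 library.

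The cyclic AMP response element is the DNA element that CREB family factors bind. A search of promoter windows (250 bases before to 50 after a start, RefSeq, GRCm38.p6) covered 7 of the 10 members and 23 starts. Tshr, Adcy6 and Crem had no entry. The palindrome TGACGTCA was present in windows of 1 member, Prkar1a, in the overlapping windows of 2 of its 6 starts, which hold the same 1 site. It occurred in 1.79% of all 32851 windows. The shorter site TGACG, which lies within the palindrome, was found on either strand in 9 of the 23 windows, against 20.8% of all windows. By gene, 5 of the 7 members had it in at least 1 window, against 23.0% of all 27025 genes, and members with several starts had more windows in which to hold it. Windows of nearby starts overlap, so 1 site can count in several: the 3 Gnas windows with the shorter site hold 2 distinct sites. For each member with a site, 1 stretch of 30 bases is shown. The members' windows hold 9 distinct shorter sites in all, those within the palindrome included, so not every site is shown. Capitals mark the palindrome or the shorter site, which reads CGTCA where it lies on the other strand.
Prkar1a (chr11:109650889-109650918, plus strand): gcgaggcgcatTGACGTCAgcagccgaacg
Gnas (chr2:174327699-174327728, plus strand): aagaggttggggCGTCAtcaggctggttag
Adcy9 (chr16:4420505-4420534, minus strand): cggacccggcggTGACGtgcgcgggccgcg
Pde4b (chr4:102421509-102421538, plus strand): gatttggctgcaCGTCAattttctcatctg
Pde8b (chr13:95223001-95223030, minus strand): cgggagggaaagttggggTGACGcgcgctg

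The Prkar1a palindrome begins 49 bases before 1 annotated start. A match describes the letters only and shows no binding. Any link between a site and the changes below was not tested.

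The first question was which cells of the thyroid carry each member in control animals. Most Tshr transcripts were in the thyrocyte label Th1. Of 1730 Tshr UMIs over all 9 samples, 93.9% were in Th1 and 4.5% in Th3, a shallow label with a median of 987 UMIs per cell. Th3 mixed markers of several cell types over the 9 samples, with thyrocyte markers at 81070 CPM, C cell markers at 27608 CPM (Th1 1107 CPM) and skeletal muscle markers at 14223 CPM (Th1 8.28 CPM). Th2 held thyrocyte markers at 28077 CPM and neutrophil markers at 19473 CPM. In RW samples Tshr was at 95.8 CPM in Th1 and 93.7 CPM in Th3 (51 of its 64 UMIs from RW 1), with the samples pooled, and at 4.33 CPM or less in each of the other 14 labels. Outside Th1, Th2 and Th3, the remaining 13 labels held 21 Tshr UMIs in all. If their thyroglobulin (Tg) transcripts had come as free RNA from Th1 cells of the same sample, 19.7 Tshr UMIs would have come with them. The largest count in 1 label and group was 3 UMIs. Single sums lay on both sides of this reckoning, with 3 UMIs against 0.46 in T1 of RW, 3 against 0.59 in EC1 of aN1aN2 and 2 against 4.42 in EC1 of RW. The same reckoning for Th3 gave 59.2 UMIs in RW, where 64 were counted, 23.8 in aJ1aJ2, where 8 were, and 6.98 in aN1aN2, where 5 were. The source of the Tshr transcripts in Th3 and in the other labels was not tested.

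The other members were spread over many labels, as the heat map of members by label shows. Gnas was detected in all 16 labels. Among labels of which RW samples held at least 20 cells, it was at 2208 to 2666 CPM in EC1, 1981 to 2428 CPM in EC4, 1685 to 2128 CPM in EC3 and 1535 to 2491 CPM in Th3. In S it was at 1298 and 3808 CPM in 2 samples, and RW 2, with 13 cells, was at 845 CPM. It was lowest in Eryth2 (100.4 to 124 CPM). S is led by Schwann cell markers, EC1 to EC4 by endothelial markers (in EC2 second to erythroid transcripts), and Eryth1 and Eryth2 by globins. The ranges of S, EC1, EC4 and Th3 overlapped, and that of EC3 lay below EC1 and within S, so no label is named as the highest of these. Th1 was at 936 to 1103 CPM, below the ranges of EC1, EC3, EC4 and Th3. In RW samples of at least 20 cells, it also lay below EC2 (1481 and 2013 CPM) and F (1174 to 1338 CPM). The same held for S and for SM in RW 3 (1477 CPM). In P, the parathyroid label led by Pth, the 15 RW cells held 7072 Gnas UMIs, or 14870 CPM (95% counting interval 14525 to 15220). Gnas is an imprinted gene with several starts at chr2:174284320-174346744 (GRCm38), overlapped on the other strand by Nespas. Whether counting used strand is not given in the sources used here, so reads of the 2 genes may not be separable.

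**Figure D1:**
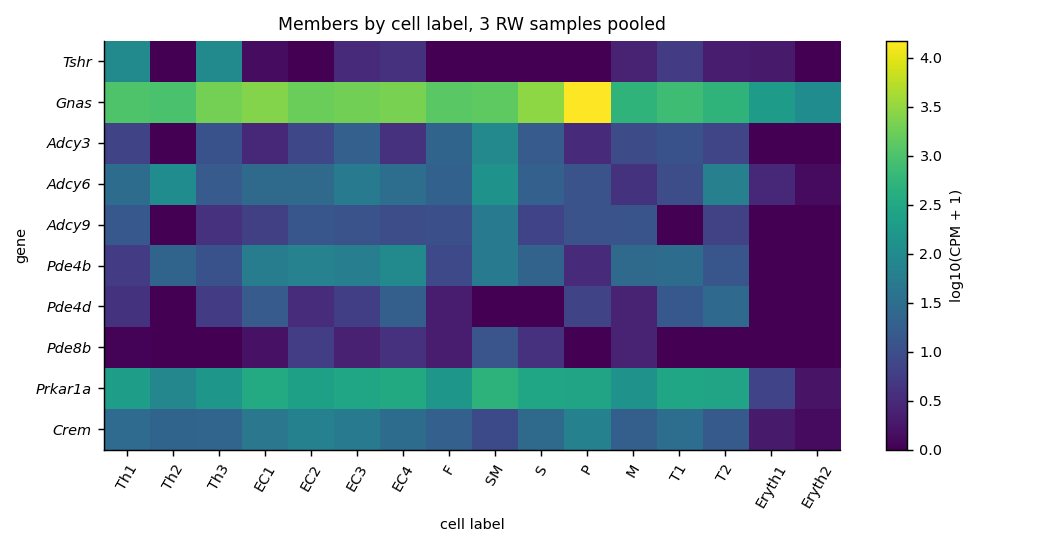
Each cell gives log10(CPM + 1) of a member (vertical axis) in a cell label (horizontal axis), from the counts of the 3 RW samples pooled. Tshr stands out in Th1 (95.8 CPM) and Th3 (93.7 CPM), Gnas in P (14870 CPM), and the cyclases in SM.

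The cyclases, which make cyclic AMP, were highest in SM, the label led by mural cell markers such as Acta2, where the RW samples held 44 cells. Adcy3 was at 91.8 CPM there, from 24 UMIs, against 5.56 ± 3.25 CPM (SD, n = 3) in Th1. The Th1 value is on the TMM-adjusted scale explained below, and the SM value is plain CPM of the label total. Adcy6 was at 134 CPM in SM, from 35 UMIs, and Adcy9 at 49.7 CPM, from 13 UMIs. In SM only RW 3 held 20 cells or more, so blockade could not be tested against RW there. Adcy6 in SM was at 60.4 to 153 CPM in the RW samples, 261 to 330 CPM in aJ1aJ2 and 203 to 318 CPM in aN1aN2, and the RW range lay below both others. The 2 lower RW samples held 8 and 5 cells.

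The member phosphodiesterases Pde4b, Pde4d and Pde8b, which hydrolyse cyclic AMP, lay mostly outside thyrocytes. In RW samples Pde4b was at 70.2 to 149 CPM in EC4 and 48.8 to 68.9 CPM in EC1, against 4.68 ± 0.831 CPM in Th1, this last on the TMM-adjusted scale explained below. Pde4d reached 26.1 CPM in T2, the thymocyte label, and 14.8 CPM in EC1, with RW samples pooled. Pde8b was close to the limit of detection in all labels, with 51 UMIs in the whole series, of which 27.5% were in SM.

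Prkar1a, which holds the catalytic subunits of the kinase inactive until cyclic AMP binds, was broad, at 338 to 378 CPM in EC1 and 493 CPM in the pooled SM cells of RW. Crem, a CREB family factor with repressor forms that cyclic AMP induces, was at 71.2 and 94.2 CPM in EC2 in the 2 RW samples with at least 20 cells, and at 21.9 CPM in RW 3 with 15 cells. It was at 43.3 to 58.5 CPM in EC3 and at 23.3 to 30.0 CPM in Th1. Levels are compared here across labels for 1 gene at a time, since counts from the 3' end are not scaled for comparing genes.

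In Th1, 7 of the 10 members passed the filter on low counts. Pde4b (101 UMIs over the 9 samples), Pde4d (57) and Pde8b (2) did not, and have no test in thyrocytes. In this and the next paragraphs CPM is scaled to the TMM-adjusted Th1 total, TMM being edgeR's scaling between libraries, and changes are log2 values from edgeR with their standard errors (SE). The pool of mice is the replicate, so p-values measure the spread between pools.

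**Figure D2:**
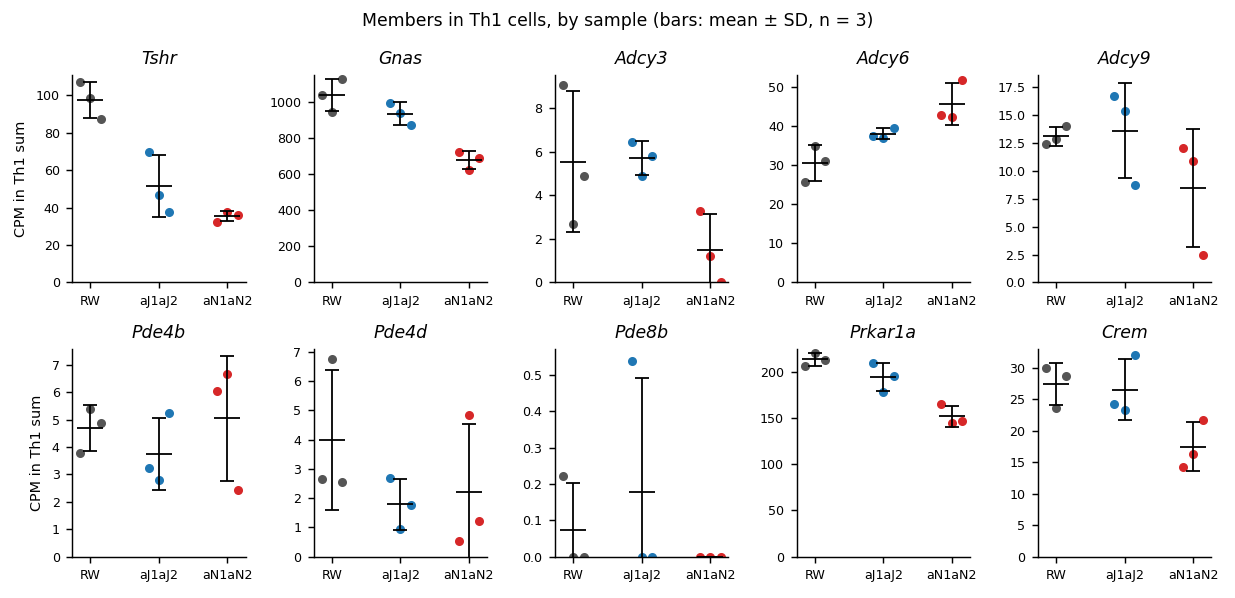
Each panel gives CPM of 1 member in Th1 (vertical axis) for the 3 samples of each group (points), with bars for the mean and SD. Tshr is 87.4 to 107 CPM in RW, 37.9 to 69.9 CPM in aJ1aJ2 and 32.4 to 37.6 CPM in aN1aN2.

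Tshr (ENSMUSG00000020963, chr12:91384563-91549808, plus strand) was lower under both blockades. It was at 107, 98.5 and 87.4 CPM in RW 1, 2 and 3, at 69.9, 47.0 and 37.9 CPM in aJ1aJ2 1, 3 and 4, and at 32.4, 37.6 and 36.3 CPM in aN1aN2 1, 2 and 3. Every treated sample was below every RW sample. Of the treated groups, aJ1aJ2 was the more spread, and its lowest sample was just above the highest of aN1aN2. Against RW, Tshr fell by 0.93 (SE 0.17, adjusted p 0.0235) in aJ1aJ2, to 52.9% of the RW mean. It fell by 1.47 (SE 0.19, adjusted p 3.42e-05) in aN1aN2, to 36.3%.

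Tshr was the only member called, at an adjusted p under 0.05, in aJ1aJ2 against RW, where 0.612% of 10627 genes were called, 0.226% lower and 0.386% higher. This call was lost without RW 1 (adjusted p 0.114), RW 2 (0.0879), aJ1aJ2 3 (0.180) or aJ1aJ2 4 (0.109), with log2 changes between -0.92 and -0.77. It was also lost with only the 2 groups compared, and held under 12 of 17 alternatives. With the series as a batch term Tshr fell by 0.93 (adjusted p 0.0217), and within series B alone by 1.25 (adjusted p 7.50e-05). The library numbers of the RW and aJ1aJ2 samples of series B form separate runs, so group and library set cannot be told apart within it. Series A has 1 sample a group and gives no test. Its samples were at 87.4 CPM (RW 3) and 69.9 CPM (aJ1aJ2 1).

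The share of Th1 cells with a Tshr UMI followed the same order, but it also follows depth. It was 68.7% in RW (292 of 425 cells, exact 95% interval 64.1 to 73.1%), 47.2% in aJ1aJ2 and 29.0% in aN1aN2. With each cell thinned to 2000 UMIs, the expected share was 16.3% in RW, 8.97% in aJ1aJ2 and 7.53% in aN1aN2, after leaving out 1, 1 and 25 shallower cells. In EC1, which should lack the receptor, 0.303% of RW cells had a Tshr UMI, at a median depth of 4813 UMIs against 17624 in Th1. Restricting Th1 to cells of over 8000 and up to 30000 UMIs, where 20 to 109 cells a sample remained, at median depths of 12172 to 15623 UMIs, Tshr fell by 0.92 in aJ1aJ2 (adjusted p 0.0428) and by 1.31 in aN1aN2 (adjusted p 0.00128).

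In Th3 the RW samples were unlike each other, at 150, 61.9 and 20.3 CPM of the label total in RW 1, 2 and 3. RW 1 held 51 of the 64 RW UMIs. The aJ1aJ2 samples held 8 Tshr UMIs (15.9 CPM, 95% counting interval 6.85 to 31.3) and the aN1aN2 samples 5 (15.3 CPM, 4.96 to 35.6). RW 3, at 4 UMIs, lay within the range of the treated samples, 0 to 44.1 CPM. Tshr did not pass the filter on low counts in Th3 and has no test there.

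Within control thyrocytes, 366 of 425 RW cells had topic 1 of the authors' topic model as the leading one. Tshr was at 112, 107 and 85.7 CPM in them in RW 1, 2 and 3. The 8, 2 and 5 cells led by topic 5 were at 52.1, 27.6 and 43.3 CPM. Tshr in these cells was lower than in topic 1 cells in each sample, from 18, 3 and 10 UMIs, and Gnas was 1287, 1003 and 1776 CPM against 1034, 969 and 1079 CPM. The 23 cells led by topic 3 were at 84.3, 44.4 and 182 CPM of Tshr in RW 1, 2 and 3, and the 21 led by topic 4 at 128, 107 and 113 CPM, so neither was lower than topic 1 in every sample. Gnas in these cells was below topic 1 cells in each sample, at 805, 666 and 864 CPM in topic 3 and 626, 408 and 620 CPM in topic 4. Topics were built from the same cells, so this is a description. Of 348 aN1aN2 Th1 cells, 279 were led by topic 2, which led no RW cell.

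Gnas (ENSMUSG00000027523) was lower in aN1aN2 thyrocytes. It was at 1040, 947 and 1126 CPM in RW 1, 2 and 3, at 996, 937 and 872 CPM in aJ1aJ2 1, 3 and 4, and at 722, 625 and 691 CPM in aN1aN2 1, 2 and 3. The aN1aN2 samples lay below all others, while RW and aJ1aJ2 overlapped. Gnas fell by 0.61 (SE 0.10, adjusted p 0.000316) against RW and by 0.46 (SE 0.10, adjusted p 0.00467) against aJ1aJ2. The aJ1aJ2 change was -0.15 (95% interval -0.35 to 0.05).

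In aN1aN2 against RW, 6 of the 7 tested members were called, 5 lower and 1 higher. Adcy3, 1 of the 5, reached the level of the filter in no aN1aN2 sample. In that comparison 34.4% of all genes tested were called, 17.3% lower and 17.1% higher. The members' median change was -0.61, and that of all genes was 0.02. Against aJ1aJ2, 3 members were called lower and none higher, where 22.3% of genes were called, 11.5% lower and 10.8% higher. The comparisons with RW share the RW samples.

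**Figure D3:**
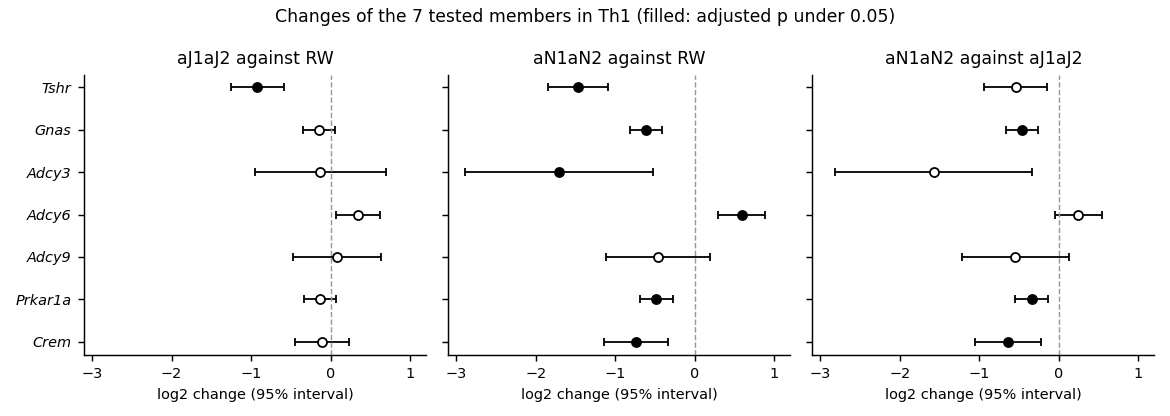
Log2 changes in Th1 (horizontal axis, bars are 95% intervals) of the 7 tested members in the 3 comparisons, filled where the adjusted p was under 0.05. Tshr is filled for aJ1aJ2 against RW (-0.93), and 6 members are filled for aN1aN2 against RW, with Adcy6 to the right of 0 (0.59).

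Of the 3 cyclases, Adcy6 was called higher and Adcy3 lower in aN1aN2 against RW, and Adcy9 was not called. Adcy6, a cyclase that calcium inhibits, was at 25.7, 35.1 and 31.0 CPM in RW 1, 2 and 3, at 37.6, 37.0 and 39.7 CPM in aJ1aJ2 1, 3 and 4, and at 42.8, 42.4 and 52.0 CPM in aN1aN2 1, 2 and 3. The 3 groups did not overlap. It rose by 0.59 (SE 0.15, adjusted p 0.00675) in aN1aN2 against RW. The change of 0.34 in aJ1aJ2 did not pass (SE 0.14, adjusted p 0.335). In Th1 cells of over 8000 and up to 30000 UMIs the aN1aN2 change was 0.65 and did not pass (adjusted p 0.0840).

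Adcy3 was near the limit of detection in aN1aN2 thyrocytes. It was at 9.10, 2.70 and 4.88 CPM in RW 1, 2 and 3, at 6.45, 4.89 and 5.84 CPM in aJ1aJ2 1, 3 and 4, and at 3.29, 1.21 and 0 CPM in aN1aN2 1, 2 and 3, from 6, 2 and 0 UMIs. RW 2 lay below aN1aN2 1, so the groups overlapped. Adcy3 passed the filter through 1 RW and 2 aJ1aJ2 samples, with 0 aN1aN2 samples at its level, which limits what a fall in aN1aN2 shows. It fell by 1.71 (SE 0.60, adjusted p 0.0390) against RW. The call was lost without RW 1 (-1.17, adjusted p 0.184), aJ1aJ2 4 (0.0515), aN1aN2 2 (0.162) or aN1aN2 3 (0.0976), and with DESeq2 (0.0662). Without aN1aN2 1 the change was -2.85 (adjusted p 0.0284).

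Adcy9 was at 12.4 to 14.0 CPM in RW, 8.75 to 16.7 CPM in aJ1aJ2 and 2.42 to 12.1 CPM in aN1aN2. The RW and aN1aN2 ranges did not overlap. It was called in no comparison, with a change of -0.46 in aN1aN2 against RW (95% interval -1.12 to 0.19). That interval includes both no change and a fall as large as that of Gnas.

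Of the phosphodiesterases, Pde4b in Th1 was at 3.77 to 5.40 CPM in RW, 2.79 to 5.25 CPM in aJ1aJ2 and 2.42 to 6.67 CPM in aN1aN2, with all groups overlapping. Pde4d was at 2.54 to 6.75 CPM in RW, 0.928 to 2.69 CPM in aJ1aJ2 and 0.549 to 4.85 CPM in aN1aN2, also overlapping. Pde8b gave 1 UMI in RW, 1 in aJ1aJ2 and 0 in aN1aN2.

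Prkar1a (ENSMUSG00000020612, chr11:109649405-109669656, plus strand) was at 207, 221 and 213 CPM in RW 1, 2 and 3, at 209, 178 and 195 CPM in aJ1aJ2 1, 3 and 4, and at 165, 145 and 146 CPM in aN1aN2 1, 2 and 3. The aN1aN2 samples lay below all others, and aJ1aJ2 1 lay within the RW range. Prkar1a fell by 0.48 (SE 0.11, adjusted p 0.00241) in aN1aN2 against RW. It fell by 0.34 (SE 0.11, adjusted p 0.0303) against aJ1aJ2, a call lost without RW 1 (0.0541), aJ1aJ2 1 (0.0760), aJ1aJ2 4 (0.0893), aN1aN2 2 (0.144) or aN1aN2 3 (0.0830). Over all alternatives this call held under 7 of 15.

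Crem was at 30.0, 23.6 and 28.7 CPM in RW 1, 2 and 3, at 24.2, 23.3 and 32.1 CPM in aJ1aJ2 1, 3 and 4, and at 14.3, 16.4 and 21.8 CPM in aN1aN2 1, 2 and 3. The aN1aN2 samples lay below all others. Crem fell by 0.74 (SE 0.20, adjusted p 0.0109) against RW, and the call was lost without aN1aN2 1 (-0.60, adjusted p 0.0825). It fell by 0.64 against aJ1aJ2 (adjusted p 0.0429), which was lost without RW 1 (0.0565), RW 3 (0.0509), aJ1aJ2 4 (0.149), aN1aN2 1 (0.206) or aN1aN2 2 (0.134). Over all alternatives this second call held under 7 of 15.

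Of 16 lists of cell type markers, 4 summed to levels in Th1 that did not overlap between aN1aN2 and RW, those of parathyroid, B cell, skeletal muscle and thyrocyte. The summed level of 4 parathyroid markers in Th1 was 125 to 294 CPM in aN1aN2, with 2 or 3 of the 4 above 0, against 10.0 to 48.5 CPM in RW and 19.7 to 69.1 CPM in aJ1aJ2. The 4 skeletal muscle markers summed to 5.73 to 37.6 CPM in aN1aN2, 4.22 to 27.6 CPM in aJ1aJ2 and 1.72 to 4.22 CPM in RW. The 3 C cell markers, at 991 to 1820 CPM in aN1aN2, overlapped RW (391 to 1044 CPM) and aJ1aJ2 (25.6 to 2538 CPM), and 5 endothelial markers, at 76.8 to 390 CPM, overlapped RW (364 to 499 CPM). Of 3 B cell markers only Cd79b was above 0, and the sum was 37.6 to 52.7 CPM in aN1aN2 against 17.4 to 20.7 CPM in RW and 16.9 to 24.9 CPM in aJ1aJ2, without overlap, while Cd79a and Ms4a1 were at 0. Thyrocyte markers were at 97785 to 113407 CPM in aN1aN2 and 89327 to 96519 CPM in RW. Of 15 tested genes of the dissociation response, induced when tissue is digested, 3 were higher in aN1aN2 than in RW (Zfp36 1.63, Btg2 1.32, Hspa1a 0.58) and 2 lower (Jun -0.91, Hsph1 -0.87), and 0 were called in aJ1aJ2. These 5 of 15 are to be read beside the 34.4% of all genes called. The call of Jun held under 11 of 16 alternatives (-0.32 without RW 1) and the other 4 under at least 15. The part of other cells, of dissociation and of depth in the members' changes was not tested beyond the depth range given above.

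The rest of the pathway was described over 127 other genes of cyclic AMP signalling, 74 of which passed the filter in Th1. Thyroid hormone synthesis genes that TSH is known to regulate formed a list of their own. In aJ1aJ2 against RW 3 of the 74 were called, all higher, where 0.612% of all genes were called, 0.386% higher. The median change of the 74 was 0.02, against 0.01 over all genes. In aN1aN2 against RW 16 were higher and 10 lower, and the median was -0.03, against 0.02. The share called, 26 of 74, is to be read beside the 34.4% of all genes. Counts for single lists in the next paragraphs are to be read beside the same shares. Of these 26 calls, 13 held under every alternative, and of the 3 in aJ1aJ2, 0 did. Of the 74, 2 passed the filter through the samples of 1 group alone, Creb5 through aJ1aJ2 and Prkar2b through RW, so their differences support nothing. Areg and Pde7b reached the filter's level in 3 RW samples each and in 1 and 3 aJ1aJ2 samples, but in 0 aN1aN2 samples. They too passed only through samples where they were high, which limits what their falls in aN1aN2 show.

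**Figure D4:**
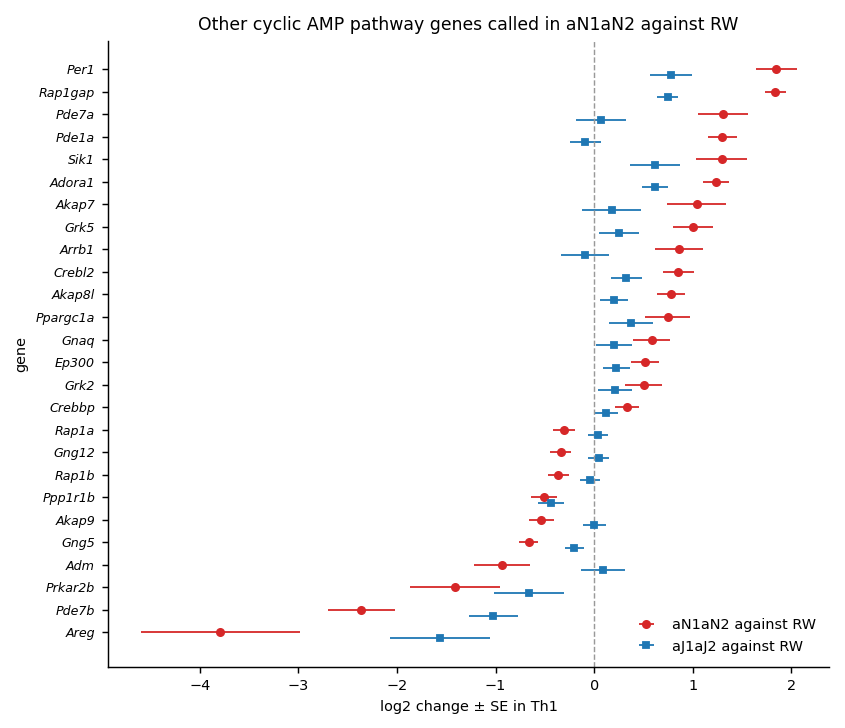
Log2 changes ± SE in Th1 (horizontal axis) of the 26 other pathway genes called in aN1aN2 against RW (circles), with the same genes in aJ1aJ2 against RW (squares, which share the RW samples). Per1 (1.85) and Rap1gap (1.84) are farthest to the right and Areg (-3.79) farthest to the left.

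At the receptor level, Adora1, an adenosine receptor coupled to the inhibitory G protein, was higher in both blockades. It was at 51.4 ± 6.88 CPM (SD, n = 3) in RW, 79.7 ± 7.81 CPM in aJ1aJ2 and 121 ± 8.99 CPM in aN1aN2, with changes of 0.62 (adjusted p 0.0437) and 1.23 (adjusted p 4.60e-06). The aJ1aJ2 call held under 7 of 17 alternatives (adjusted p up to 0.230), and was lost without RW 1, RW 2, aJ1aJ2 3, aJ1aJ2 4 or any 1 of the aN1aN2 samples. The aN1aN2 call held under all 16. Adm, the peptide ligand adrenomedullin, was the other receptor-list gene called in aN1aN2 (-0.94, a call held under 10 of 16 alternatives, with changes from -1.11 to -0.56). The 4 genes of the glycoprotein hormone ligands did not pass the filter. Among 19 tested G proteins and receptor regulators, none was called in aJ1aJ2. In aN1aN2 Grk5 (1.00), Arrb1 (0.86), Gnaq (0.58) and Grk2 (0.50) were higher, and the gamma subunits Gng5 (-0.67) and Gng12 (-0.34) lower. The calls of Grk5 and Gng5 held under all 16 alternatives, those of Arrb1 and Gng12 under 12, that of Gnaq under 10 and that of Grk2 under 6, with changes of Grk2 from 0.28 to 0.88 and adjusted p up to 0.344, and of Gng12 from -0.45 to -0.22. Grk2, Grk5 and Arrb1 encode kinases and an arrestin that desensitise receptors, and Gnaq the alpha subunit of the phospholipase C pathway.

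Of 7 tested phosphodiesterases that are no members, 3 were called in aN1aN2 and none in aJ1aJ2, where 34.4% and 0.612% of all genes were called. Pde1a, a calcium-dependent enzyme, was at 22.2 ± 1.35 CPM in RW, 20.7 ± 1.05 CPM in aJ1aJ2 and 55.2 ± 7.54 CPM in aN1aN2, a rise of 1.30. In Th1 cells of over 8000 and up to 30000 UMIs the rise was 0.76 (adjusted p 0.0347). Pde7a rose by 1.31 and Pde7b, its close relative, fell by 2.36, from 20.4 ± 6.58 to 3.72 ± 0.481 CPM. Pde7b reached the level of the filter in no aN1aN2 sample. The 1 tested cyclase that is no member was called in neither blockade.

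Around the kinase, 2 anchoring proteins were higher in aN1aN2 (Akap7 1.04 and Akap8l 0.78) and 3 genes lower, the regulatory subunit Prkar2b (-1.41, which passed the filter through RW alone), Ppp1r1b (-0.51), a phosphatase inhibitor, and the anchor Akap9 (-0.54), of 15 tested. The call of Akap7 held under 13 of 16 alternatives and that of Prkar2b under 9 of 13. In the Epac and Rap branch, which cyclic AMP opens without the kinase, Rap1gap was higher in both blockades. This GTPase-activating protein of Rap1 was at 106 ± 5.53 CPM in RW, 177 ± 18.4 CPM in aJ1aJ2 and 380 ± 11.9 CPM in aN1aN2, rises of 0.75 (adjusted p 0.00647) and 1.84 (adjusted p 1.79e-08). The 3 groups did not overlap. The aJ1aJ2 call was lost without aJ1aJ2 3 (adjusted p 0.0702). In aN1aN2 Rap1b was lower (-0.37, a call held under 13 of 16 alternatives). The call of Rap1a (-0.31) held under 5 of 16, and in Th1 cells of over 8000 and up to 30000 UMIs its change was -0.0038 (adjusted p 0.992).

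Of the 10 CREB family genes and coactivators, Creb5 was at 8.42 ± 2.19 CPM in aJ1aJ2, 2.32 ± 0.364 CPM in RW and 0 to 2.42 CPM in aN1aN2. It passed the filter through aJ1aJ2 alone, and its call against RW held under 6 of 14 alternatives (adjusted p up to 0.173). In aN1aN2 against RW, Crebl2 (0.85) and the histone acetyltransferases Ep300 (0.52) and Crebbp (0.33) were higher. These calls held under 15, 13 and 6 of 16 alternatives, with an adjusted p of up to 0.199 for Crebbp. In Th1 cells of over 8000 and up to 30000 UMIs the change of Crebl2 was 0.55 (adjusted p 0.167) and that of Crebbp 0.53 (adjusted p 0.0362). Among 11 early targets that cyclic AMP is known to induce, 3 were higher and 1 lower in aN1aN2. Of all genes, 17.1% were called higher and 17.3% lower there. Per1 rose by 1.85, Sik1, a kinase that restrains CREB coactivators, by 1.29, and Ppargc1a by 0.75 (a call held under 12 of 16 alternatives, with changes from 0.40 to 0.95). Areg, the growth factor amphiregulin, was lower, at 0 to 1.65 CPM in aN1aN2 against 7.54 to 12.5 CPM in RW. With 3 UMIs in aN1aN2 and 114 in RW, the pooled level in RW was 14.6 times that in aN1aN2 (exact 95% counting interval 4.88 to 71.9). The fitted change of -3.79 depends on these few UMIs and was -7.79 without aN1aN2 1. Per1 is also a clock gene and a glucocorticoid target.

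Of 12 tested thyrocyte genes regulated by TSH, 8 were lower and 2 higher in aN1aN2 against RW, where 17.3% of all genes were called lower and 17.1% higher, and none was called in aJ1aJ2, where 0.612% of all genes were. The falls were led by the iodide transporter Slc5a5 (-3.96), the deiodinase Dio1 (-1.61), the iodotyrosine deiodinase Iyd (-1.42) and the transcription factor Foxe1 (-0.97). Slc5a5 was at 244 ± 44.3 CPM in RW, 111 ± 63.6 CPM in aJ1aJ2 and 14.7 ± 4.59 CPM in aN1aN2. The 2 called higher were the transcription factors Pax8 (0.31), a call held under 10 of 16 alternatives, and Nkx2-1 (0.27), held under 3 of 16 (adjusted p up to 0.326). Several of these genes were known from earlier results of the same samples to differ, so the list is no independent evidence.

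Outside Th1, no member was called in aJ1aJ2 against RW, in 28 tests of a member in 1 of 11 labels by edgeR, 7 of which had an unadjusted p under 0.05. The share of all genes called was 1.43% in EC1, 1.91% in EC2, 0.0618% in EC3, 0.903% in EC4, 0.358% in Eryth2, 0.579% in F and 0% in Eryth1, M, S, T1 and Th3. The nearest to the threshold were the phosphodiesterases Pde4d and Pde4b in EC1, the main endothelial label. Pde4d was at 17.6, 23.2 and 7.99 CPM of the label total in RW 1, 2 and 3, and at 3.27, 3.17 and 4.63 CPM in aJ1aJ2 1, 3 and 4. These groups did not overlap, and the change was -2.02 (SE 0.52, adjusted p 0.0542). Pde4b was at 68.9, 50.1 and 48.8 CPM in RW and at 42.5, 20.3 and 33.1 CPM in aJ1aJ2, also without overlap, a change of -0.92 (SE 0.24, adjusted p 0.0572). Without RW 3 both passed (Pde4d -2.40, adjusted p 0.00668, and Pde4b -1.03, adjusted p 0.0284). Pde4b also passed without aJ1aJ2 1 (-1.07, adjusted p 0.0131) and Pde4d without aN1aN2 2 (-2.02, adjusted p 0.0498).

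In aN1aN2 against RW, with all samples, the only member called outside Th1 was Gnas. It was lower in 5 of the 8 labels tested, EC1 (-1.37, SE 0.13), EC2 (-0.85, SE 0.19), EC3 (-0.87, SE 0.18), EC4 (-1.40, SE 0.17) and the fibroblast label F (-0.87, SE 0.18). The share of genes called lower was 8.93% of 17.8% called in EC1, 6.62% of 15.5% in EC2, 2.41% of 5.91% in EC3, 9.93% of 21.1% in EC4 and 10.6% of 19.8% in F. In EC1 Gnas was at 2387, 2208 and 2666 CPM in RW 1, 2 and 3, at 2675, 2250 and 2027 CPM in aJ1aJ2 1, 3 and 4, and at 971, 838 and 1070 CPM in aN1aN2 1, 2 and 3. The aN1aN2 samples lay below every other sample, while RW and aJ1aJ2 overlapped. The call in EC2 did not hold without RW 2, but only 1 RW sample of EC2 is left in that fit. With 1 sample left out at a time, the EC2 change ran from -1.09 to -0.67. The call in EC3 was lost without aN1aN2 2 (adjusted p 0.0538). In P, too small to test, Gnas was at 14870 CPM in the RW cells, 12289 CPM in the 25 aJ1aJ2 cells (95% counting interval 11874 to 12716) and 6800 CPM in the 37 aN1aN2 cells (6503 to 7107).

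**Figure D5:**
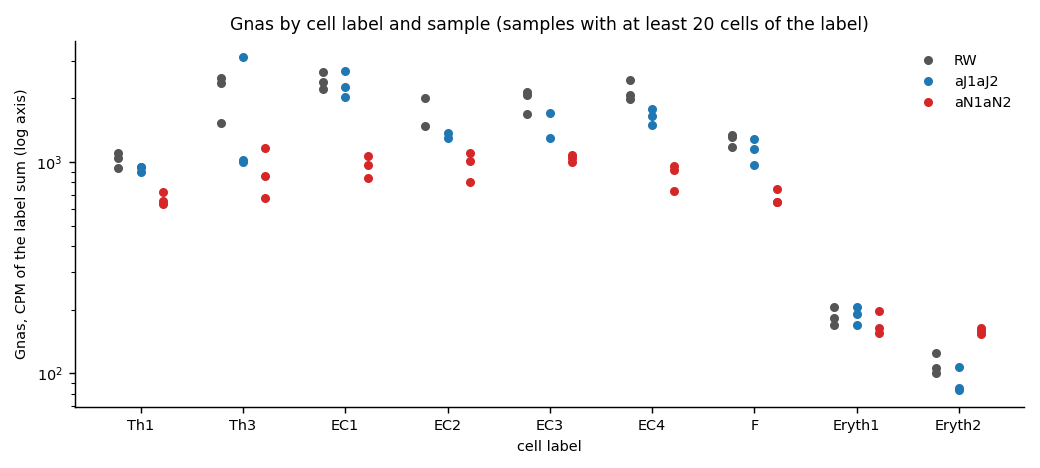
Gnas as CPM of the label sum (vertical log axis) in the labels with at least 2 RW and 2 aN1aN2 samples of 20 cells or more (horizontal axis), each point 1 sample coloured by group. In EC1 the aN1aN2 samples sit at 838 to 1070 CPM and the RW samples at 2208 to 2666 CPM, and in Eryth2 the aN1aN2 samples lie above both other groups.

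In Th3 the RW samples held Gnas at 1535 to 2491 CPM and the aN1aN2 samples at 673 to 1161 CPM. These ranges did not overlap, but after TMM scaling aN1aN2 2 (1798 CPM) lay above RW 1 (1689 CPM), and Gnas was not called (-1.07, SE 0.51, adjusted p 0.245; 5.03% of genes called). In Eryth1 it was not called (-0.29, adjusted p 0.769; 7.69% of genes called). In Eryth2 the change against RW was 0.61 (SE 0.22, adjusted p 0.0920; 8.6% of genes called). There it was higher in aN1aN2 than in aJ1aJ2 (0.90, SE 0.23, adjusted p 0.0281, where 9.32% of genes were called, 3.94% higher), a call lost without aJ1aJ2 4 (0.111), aN1aN2 1 (0.0862) or aN1aN2 3 (0.0714). Eryth2 held Gnas at 106, 100.4 and 124 CPM in RW 1, 2 and 3, at 85.5, 107 and 83.6 CPM in aJ1aJ2 1, 3 and 4, and at 164, 158 and 154 CPM in aN1aN2 1, 2 and 3. Median genes per cell were 90 in Eryth2, and whether these transcripts belong to the erythroid cells was not tested. Against aJ1aJ2, Gnas was also lower in aN1aN2 in EC1 (-1.27; 13.5% of genes called, 6.59% lower), EC4 (-1.07; 17.2%, 8.09% lower) and F (-0.71; 16%, 8.35% lower). In the other 5 of the 9 labels tested no member was called, where 10.5% (EC2), 1.27% (EC3), 5.59% (Eryth1), 4.05% (SM) and 1.44% (Th3) of genes were.

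The Gnas change differed in size between Th1 and EC1. On the difference of log2 CPM between Th1 and EC1 within each sample, tested with limma, Gnas changed by -0.60 in Th1 and by -1.37 in EC1 in aN1aN2 against RW, a difference of 0.78 (SE 0.09, adjusted p 0.000196, where 12.7% of 8600 genes were called). The Prkar1a change was -0.48 in Th1, where it was called, and -0.24 in EC1, where it was not, and the difference of -0.23 did not pass (SE 0.13, adjusted p 0.290). Neither Adcy6 (0.08, SE 0.33) nor Crem (-0.08, SE 0.31) passed. The difference between Th1 and the other endothelial labels was not tested. In aJ1aJ2 against RW 0 of these 4 members passed, 0 at an unadjusted p under 0.05, where 0.0698% of genes were called.

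Prkar1a was tested in 6 other labels in aN1aN2 against RW and called in none, with changes from -0.51 in Th3 to 0.17 in EC3. Adcy6 and Crem were tested in 2 labels, EC1 and EC3, and Pde4b in 3. Crem in EC1 was at 40.4 to 50.1 CPM in RW, 23.8 to 31.0 CPM in aJ1aJ2 and 21.4 to 53.8 CPM in aN1aN2. The aJ1aJ2 samples lay below RW, with a change of -0.74 that did not pass (SE 0.22, adjusted p 0.0974). The aN1aN2 change of -0.50 did not pass (SE 0.28, adjusted p 0.245), and was -0.96 (adjusted p 0.0372) without aN1aN2 3.

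Genes whose level followed Tshr most closely were picked by Pearson r of log2 CPM. Over the 9 Th1 sums they were Tsc22d1 (0.976), Tekt1 (0.974), Ccdc25 (0.971), As3mt (0.967) and Nolc1 (0.966), of 6330 genes compared. Tekt1 was at 89.2 CPM in RW, 22.5 CPM in aJ1aJ2 and 9.20 CPM in aN1aN2. Over 14 labels in RW samples they were Slc23a1 (0.970), Pax8 (0.967), St14 (0.966), Cldn7 (0.965) and Slc5a8 (0.962), of 11713 genes. The points of the first set share the group differences and the depth of their samples. Those of the second may share free thyrocyte RNA, which was not tested, so both are descriptions.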

How the data were processed

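Thyroid cells of 9 samples were profiled with the 10x 3' v2 kit. The authors deposited raw UMI counts per gene and cell and an annotation with sample, cell label and, as other values, topic weights, per the file headers. Cell Ranger and GRCm38 are named in the submitters' processing notes. The Cell Ranger version, the gene annotation, how labels were made and how doublets were treated are not given in the sources used here. No cell was removed here. An unquoted comma that shifted 2619 annotation lines was corrected. Symbols matched 52403 of 52636 identifiers, and the other 233 held 0.0293% of UMIs. Cell totals ran from 500 to 131347 UMIs.

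Counts were summed per sample and label. edgeR 4.0.16 in R 4.3.3 tested the sums by its quasi-likelihood test, with filterByExpr, TMM and 3 group means in 1 fit, and Benjamini-Hochberg adjustment over all genes tested (threshold 0.05). Other labels needed 2 samples a group of at least 20 cells. limma 3.58.1 tested Th1 minus EC1 (prior count 2). Both were tested on simulated data. Titles of RW 3 and aJ1aJ2 1 give no number. Th1 replicate sums differed beyond sampling noise (chi-square per degree of freedom 1.66 to 8.08), so each counts as 1 sample. All intervals are nominally at 95%. Those of log2 changes rest on the spread between pools. They use a normal multiple of the SE, so with few pools they are narrower than true 95% intervals. Those of counts, shares and pooled CPM cover counting error only.

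All 10 members are named. Of the other lists, called genes are named up to 4 a direction, the largest change first, and for likeness to Tshr the 5 genes of highest r among those of at least 20 CPM. Members and lists were chosen with earlier results of these data known. Alternatives were the tool, scaling, filter, samples, batch term, pooling of Th3, thinning and, added after seeing the data, a range of cell depth and left-out samples in other labels and in the difference of Th1 and EC1.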

Additional observations from a re-analysis of the deposited data

Results flagged for a closer look

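The Gnas change in aN1aN2 against RW differed between Th1 and EC1 by 0.78 (log2, limma adjusted p 0.000196), with the larger fall in EC1. After TMM scaling, every aN1aN2 sample of Eryth2 had more Gnas than every RW sample, while in 6 of the other labels tested every aN1aN2 sample had less. Th3 is not among the 6, since its scaled ranges overlapped, although those of the plain CPM did not. The gap between the changes was 1.98 with EC1, 1.46 with EC2, 1.49 with EC3, 2.02 with EC4, 1.49 with F and 1.23 with Th1. These gaps of Eryth2 were not tested.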

How the results depend on the processing

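In aN1aN2 against RW, Tshr, Gnas and Prkar1a were called under all 16 alternatives, Adcy6 and Crem under 15 of 16 each, and Adcy3 under 8 of 13. In aN1aN2 against aJ1aJ2, Gnas was called under all 15 and Prkar1a and Crem under 7 of 15. Tshr, not called there (-0.54, adjusted p 0.0674), was called without aJ1aJ2 4 (0.0255) and with no filter on low counts (0.0118). Tshr in aJ1aJ2 against RW was called under 12 of 17 alternatives. The count of members called there, 1, was 0 with only the 2 groups compared (adjusted p 0.0829) and ranged from 0 to 1 when 1 sample was left out. All genes called there, 65, ranged from 1 (without aJ1aJ2 3) to 530 (without aJ1aJ2 1) and were 103 with DESeq2, 424 with no filter, 26 with only the 2 groups compared and 649 within series B. Other pathway genes called there, 3, became 12 with no filter, 11 within series B, 1 with only the 2 groups compared and 1 with Th3 pooled, and ranged from 0 to 9 when 1 sample was left out. In aN1aN2 against RW that count, 26, ranged from 17 to 32 (17 without aN1aN2 2). In aN1aN2 against aJ1aJ2 members called, 3, became 1 with DESeq2, 5 with no filter and 1 in cells of 8000 to 30000 UMIs (1 to 3 when 1 sample was left out), and other pathway genes, 18, became 10 in those cells and 9 to 19 when 1 sample was left out. The cause of these shifts was not tested. In other labels members called in aJ1aJ2 against RW ranged from 0 to 3 when 1 sample was left out. The 3 were Pde4d and Pde4b in EC1 and Gnas in S without RW 3, where the lone RW sample of S is assumed to vary like the other groups. Signs reversed only in uncalled members of aJ1aJ2 against RW. With 1 sample left out, Adcy3 ran from -0.31 to 0.39 (0.02 without aJ1aJ2 3), Adcy9 from -0.039 to 0.26 (-0.03 without aJ1aJ2 1) and Crem from -0.25 to 0.00352. Thinned to 1000 UMIs, 8.63% of RW, 4.61% of aJ1aJ2 and 3.79% of aN1aN2 Th1 cells had a Tshr UMI. The count of members with a response element was 1 for the palindrome and 5 for the shorter site. RW and aN1aN2 share the numbers 1 and 2, but same-numbered samples did not deviate together (r 0.0420 and -0.000298). With the number as a replicate block, 5 members were called (Adcy6, Crem, Gnas, Prkar1a and Tshr). Few UMIs limit what can be said of Adcy3, Adcy9 and the 3 phosphodiesterases in Th1.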
